A study of Mus musculus with 386 samples.

Results

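The 10 genes described here are neuronal immediate-early genes: Arc, Fos, Fosb, Junb, Egr1, Egr2, Egr4, Dusp1, Nr4a1 and Npas4. They were taken by name from 18820 genes that had a transcript cluster with a single gene symbol, and each had exactly 1 such cluster. RNA from 23-day-old mice was hybridised to Affymetrix Mouse Gene 1.1 ST arrays, which read transcripts with probes along their whole length. The animals were inbred CAST, PWK or WSB mice, 3 strains derived from wild mice, or F1 mice from the 6 reciprocal crosses between them, written with the dam first (CASTxPWK has a CAST mother and a PWK father). No treatment separated the groups, both sexes were used, and all animals were bred in a single colony a few generations away from purchased founders. Of the arrays, from 111 animals in all, 85 were of brain (44 labelled female, 41 male), 102 of kidney, 101 of liver and 98 of lung. The brain arrays comprised 8 CASTxCAST, 6 PWKxPWK, 11 WSBxWSB, 10 CASTxPWK, 10 PWKxCAST, 8 CASTxWSB, 11 WSBxCAST, 8 PWKxWSB and 13 WSBxPWK animals. The comparisons asked how the brain levels of the 10 genes differed between strains, whether the F1 animals lay between their parents, and how brain compared with the other tissues.

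Immediate-early genes are transcribed within minutes of a stimulus, without new protein synthesis, when calcium entry and growth factor signalling activate kinases that phosphorylate transcription factors such as CREB, SRF and ELK1 already bound at the promoters. In neurons their RNA follows recent synaptic activity and decays quickly, so its level in a dissected brain reflects the period shortly before death. Arc encodes a synaptic protein that removes AMPA receptors from the membrane. Fos, Fosb and Junb encode subunits of the AP-1 transcription factor, Egr1, Egr2 and Egr4 zinc-finger transcription factors, Nr4a1 an orphan nuclear receptor, and Npas4 a transcription factor of neurons that responds selectively to calcium entry. Dusp1 encodes a phosphatase that switches MAP kinases off.

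The promoters of 4 members are shown because the genes moved together and their known inputs act through short motifs near the start site. Each sequence is the 250 bases before the start in RefSeq (GRCm38.p6), 5′ to 3′ on the strand of the gene. Capitals mark TGACG on either strand (read as CGTCA on the other), the core of the CREB site, including where it forms the full site TGACGTCA. The windows lie at chr12:85473640-85473889 (+ strand) for Fos, chr15:101266596-101266845 (+ strand) for Nr4a1, chr19:4989972-4990221 (- strand) for Npas4 and chr17:26508473-26508722 (- strand) for Dusp1.
Fos: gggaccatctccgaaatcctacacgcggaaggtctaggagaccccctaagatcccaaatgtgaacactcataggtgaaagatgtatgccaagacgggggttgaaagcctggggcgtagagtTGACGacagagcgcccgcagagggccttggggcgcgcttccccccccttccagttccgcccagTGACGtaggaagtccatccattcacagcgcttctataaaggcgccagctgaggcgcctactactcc
Nr4a1: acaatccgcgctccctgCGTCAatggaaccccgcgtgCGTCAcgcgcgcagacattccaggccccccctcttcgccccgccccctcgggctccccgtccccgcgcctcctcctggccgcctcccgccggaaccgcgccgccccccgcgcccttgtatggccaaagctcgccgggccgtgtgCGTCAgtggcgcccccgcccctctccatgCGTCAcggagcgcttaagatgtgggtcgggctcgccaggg
Npas4: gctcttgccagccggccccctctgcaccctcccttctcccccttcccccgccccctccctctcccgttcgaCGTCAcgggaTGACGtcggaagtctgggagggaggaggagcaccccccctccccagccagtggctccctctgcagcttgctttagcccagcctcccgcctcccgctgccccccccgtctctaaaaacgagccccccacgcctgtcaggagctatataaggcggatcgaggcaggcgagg
Dusp1: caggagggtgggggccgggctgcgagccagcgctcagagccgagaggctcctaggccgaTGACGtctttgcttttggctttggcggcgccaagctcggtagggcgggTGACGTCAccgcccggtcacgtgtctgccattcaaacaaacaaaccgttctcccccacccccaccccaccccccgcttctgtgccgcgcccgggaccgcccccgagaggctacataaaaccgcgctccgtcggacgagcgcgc
TGACG was present in 7 of the 8 members with an entry in the promoter table, all but Egr2, against 17.8% of 32851 promoter windows of the same length. Nr4a1 held 4 copies, Dusp1 3, Fos, Npas4 and Egr4 2 each, and Fosb and Junb 1 each. The full site TGACGTCA was found in Dusp1 only, against 1.55% of all windows, and contains 2 of its TGACG copies. GCGGGGGCG, the motif bound by EGR proteins, was found in Fosb and Nr4a1 (2.57% of all windows) and TATAAA in Fos (12.4%). The AP-1 motif TGANTCA (6.75%) and the CArG box of SRF (1.47%) were found in none of the 8 windows. These matches describe the letters of the reference strain and not sites in use. For Egr2, with 5 listed starts, only the most upstream start was used, while the shares of all windows count every start.

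The signals were log2 values, on which a difference of 1 is a 2-fold difference in hybridisation, and the median of a brain array lay between 7.24 and 7.50. The brain arrays carried the markers of forebrain excitatory neurons at a mean signal of 10.17 to 10.61, against 5.51 to 6.35 in kidney. The filter on low brain signals was passed by 0 of 6 kidney epithelium, 1 of 6 lung epithelium and 3 of 6 hepatocyte markers. The last include Ttr, which is also a marker of choroid plexus. A brain labelled PWKxCAST female (replicate 9) had a signal of 3.98 for Xist and 3.83 for Eif2s3y. The Xist value lay with the males (3.60 to 5.02, against 9.22 to 11.33 in the other 43 females) and the value of the Y-linked Eif2s3y with the females (3.45 to 4.60, against 7.61 to 9.24 in males), so that only Xist went against the label. Animal numbers in the labels fell into 24 runs of neighbouring numbers within a cross, here called runs (gaps of at most 3), which may share a litter or a collection day, although the labels do not say. The replicates are separate animals by their numbers. After cross and sex were removed, brains of the same run resembled each other in 9 members, with correlations from 0.12 for Npas4 and 0.32 for Dusp1 to 0.56 for Fosb and 0.65 for Nr4a1. For Egr4 it was -0.10. Where runs enter a fit as a random block, 1 correlation of 0.085 serves all genes, which is lower than those of these 9 members. Results are also given with run means as the units. Shares of all genes beside called members come from the fits to single arrays and not to run means. Over run means fewer genes were called in many contrasts, and the counts of some of these are given at the end. For contrasts within a sex and for the WSB sex contrasts, counts of all genes over run means are not given.

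In brain, most of the 10 genes shared a pattern across the 9 crosses. CAST and WSB brains had low levels, with the WSB brains split by sex, and PWK brains and the brains of the 6 F1 crosses had higher ones. The mean signal of the 10 genes per animal had a median of 8.48 in CAST (range 8.27 to 9.36), 8.84 in WSB (7.88 to 9.56) and 9.43 in PWK (9.15 to 9.74). In the 6 F1 crosses this median lay between 9.46 and 9.64. Differences were tested with limma on the means of each cross and sex, over all 11292 genes that passed the brain filter, with Benjamini-Hochberg adjustment, and a gene is called here at an adjusted p under 0.05. All 10 members passed that filter.

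**Figure D1:**
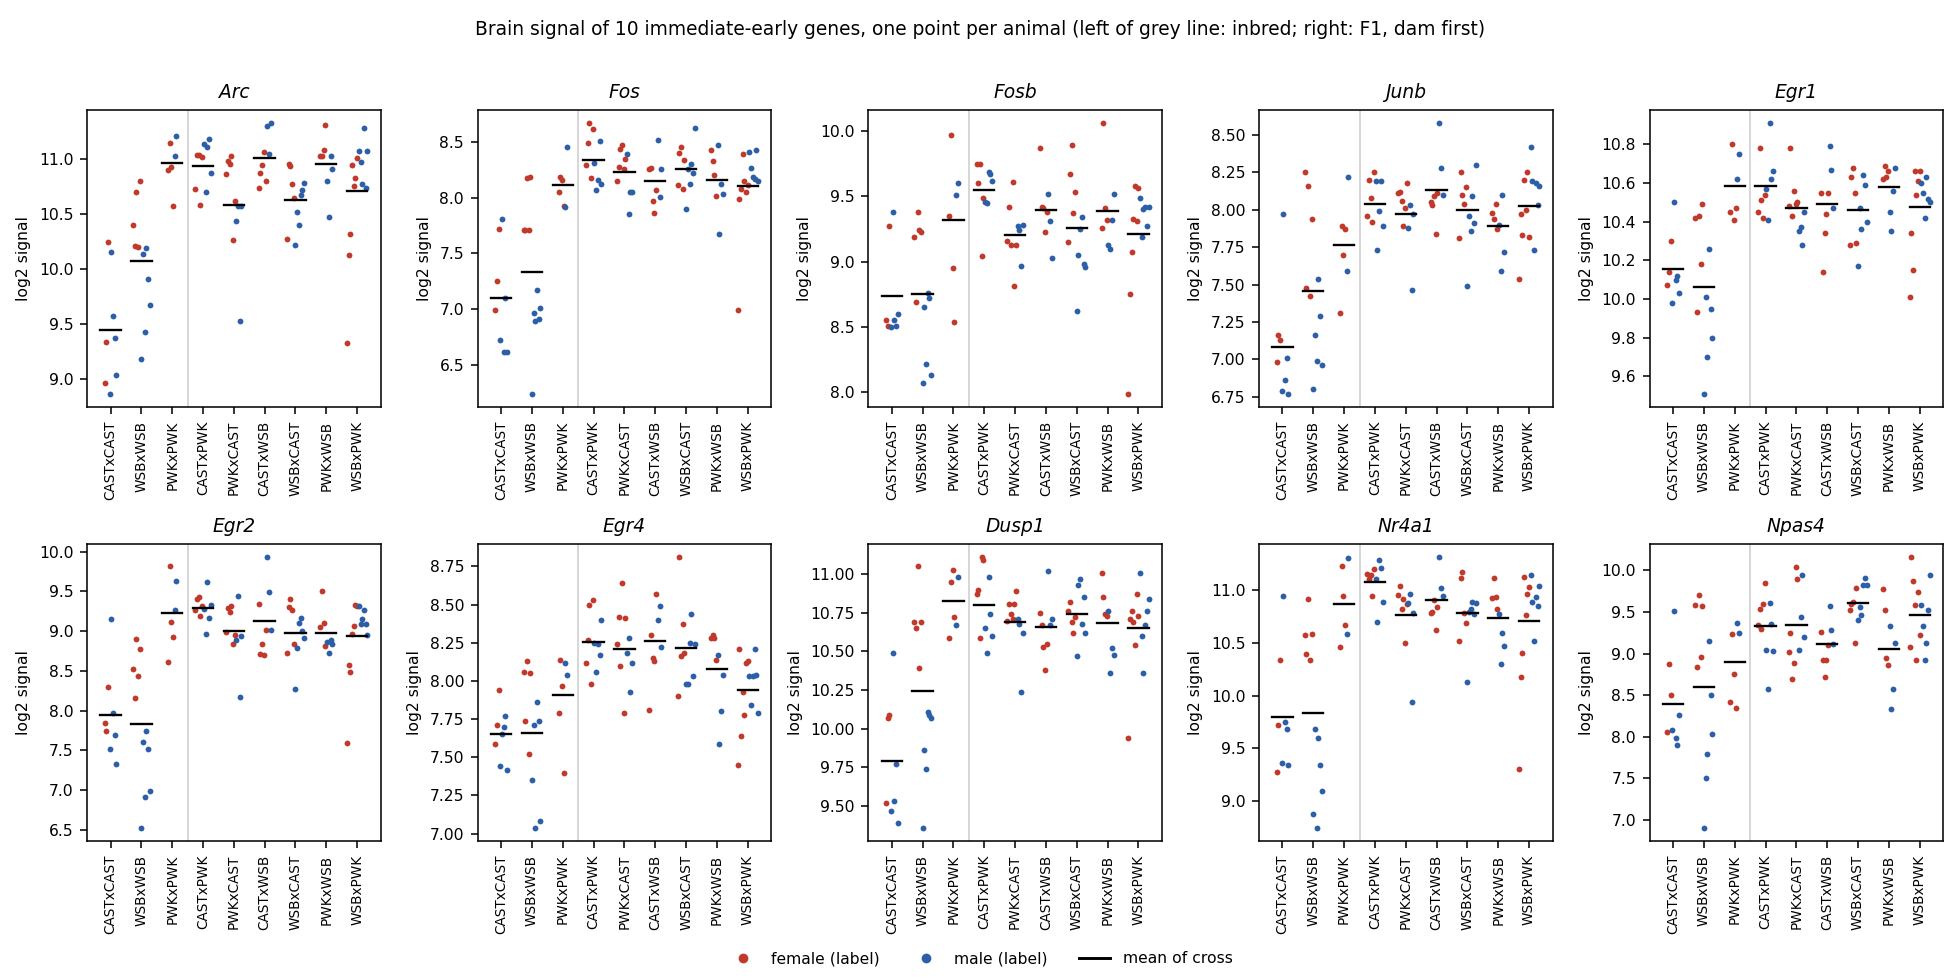
Brain log2 signal (vertical axis) of each of the 10 genes in every animal, by cross (horizontal axis, dam first), with points coloured by labelled sex and a bar at the mean of the cross. Most CAST points and the male WSB points lie below the PWK and F1 points, as for Arc, whose CAST mean was 9.45 against 10.97 in PWK.

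Arc, the synaptic effector of the set, showed the largest gap between CAST and PWK. Its signal ran from 8.87 to 10.25 (median 9.36) in the 8 CAST brains. It ran from 9.18 to 10.80 (median 10.19) in the 11 WSB brains and from 10.58 to 11.21 (median 10.98) in the 6 PWK brains. In the 60 F1 brains it ran from 9.33 to 11.33 (median 10.88). No CAST brain reached the lowest PWK brain, while WSB brains overlapped both. The fitted difference of CAST from PWK was -1.54 ± 0.19 (SE, adjusted p = 1.32e-10), that of CAST from WSB was -0.65 ± 0.16 (adjusted p = 0.000346), and PWK exceeded WSB by 0.89 ± 0.17 (adjusted p = 1.77e-05).

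The AP-1 subunits were also lower in CAST than in PWK. Fos ran from 6.61 to 7.81 (median 7.04) in CAST, 6.24 to 8.19 (median 7.17) in WSB, 7.92 to 8.46 (median 8.11) in PWK and 6.99 to 8.67 (median 8.21) in F1 brains. Every CAST brain lay below every PWK brain for Fos. Its difference between CAST and PWK was -0.995 ± 0.152 (SE, adjusted p = 1.1e-07, limma). Junb ran from 6.77 to 7.97 in CAST and from 7.32 to 8.22 in PWK, with a difference of -0.71 ± 0.14 (adjusted p = 1.77e-05). CAST replicate 5, at 7.97, stood apart from the other CAST brains, the next of which was at 7.16, and only that brain overlapped the PWK range. Fosb had a smaller difference, -0.64 ± 0.18 (adjusted p = 0.00238), with overlapping ranges of 8.51 to 9.38 in CAST and 8.54 to 9.97 in PWK.

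Of the EGR transcription factors, Egr2 differed most. It ran from 7.33 to 9.15 (median 7.80) in CAST, 6.53 to 8.90 (median 7.74) in WSB, 8.61 to 9.82 (median 9.19) in PWK and 7.58 to 9.93 (median 9.07) in F1 brains. PWK exceeded WSB by 1.40 ± 0.20 (SE, adjusted p = 8.53e-09, limma), and CAST differed from PWK by -1.34 ± 0.21 (adjusted p = 1.93e-07). Egr1 varied within a narrower band, from 9.98 to 10.50 in CAST, 9.51 to 10.49 in WSB and 10.41 to 10.80 in PWK. Its difference of CAST from PWK, -0.45 ± 0.10, was called (adjusted p = 0.000109). Egr4 had the smallest differences. CAST differed from PWK by -0.28 ± 0.13 (adjusted p = 0.0798) and PWK from WSB by 0.27 ± 0.12 (adjusted p = 0.0722), and neither was called. The former was called over run means (-0.29).

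The phosphatase gene Dusp1 and the transcription factor genes Nr4a1 and Npas4 were lower in CAST than in PWK as well. Dusp1 ran from 9.39 to 10.49 (median 9.65) in CAST, 9.36 to 11.05 (median 10.11) in WSB and 10.59 to 11.03 (median 10.84) in PWK brains, and the CAST and PWK ranges did not overlap (difference -1.01 ± 0.13 SE, adjusted p = 3.49e-10, limma). Nr4a1 ran from 9.28 to 10.94 (median 9.70) in CAST, 8.75 to 10.91 (median 9.68) in WSB and 10.46 to 11.30 (median 10.81) in PWK brains. Its difference between CAST and PWK was -1.09 ± 0.19 (adjusted p = 3.51e-06). Npas4 ran from 7.90 to 9.51 in CAST, 6.91 to 9.71 in WSB and 8.35 to 9.37 in PWK brains, so that all 3 ranges overlapped. Its difference of CAST from PWK, -0.58 ± 0.24, was called narrowly (adjusted p = 0.0405). The call was lost without a filter, in the additive model, with runs as a block, with array weights, with the brain arrays normalised alone and over run means (adjusted p from 0.0529 to 0.162), and when any of 10 of the 85 arrays was left out (adjusted p from 0.00701 to 0.127 over the 85 fits).

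Counted over the set, 9 of 10 members were called lower in CAST than in PWK, where 21.2% of all tested genes were lower, and the median difference was -0.85 against -0.01 over all tested genes. Between CAST and WSB, 3 of 10 were lower in CAST (Arc, Junb and Dusp1), near the 25.7% of all genes, with a median of -0.17 against 0.00. Between PWK and WSB, 8 of 10 were higher in PWK, where 21.3% of all genes were, with a median of 0.57 against 0.02. These inbred comparisons share their strain groups and are not independent. When the 36 means of the animals of each run and sex were used in place of the 85 animals, 9 members were called for CAST against PWK (Egr4 in place of Npas4) and 7 for PWK against WSB, but 0 for CAST against WSB. The call of Junb for PWK against WSB (0.31 ± 0.13, adjusted p = 0.0461) was lost under 6 alternative settings and when any of 9 arrays was left out (adjusted p from 0.0132 to 0.465).

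**Figure D2:**
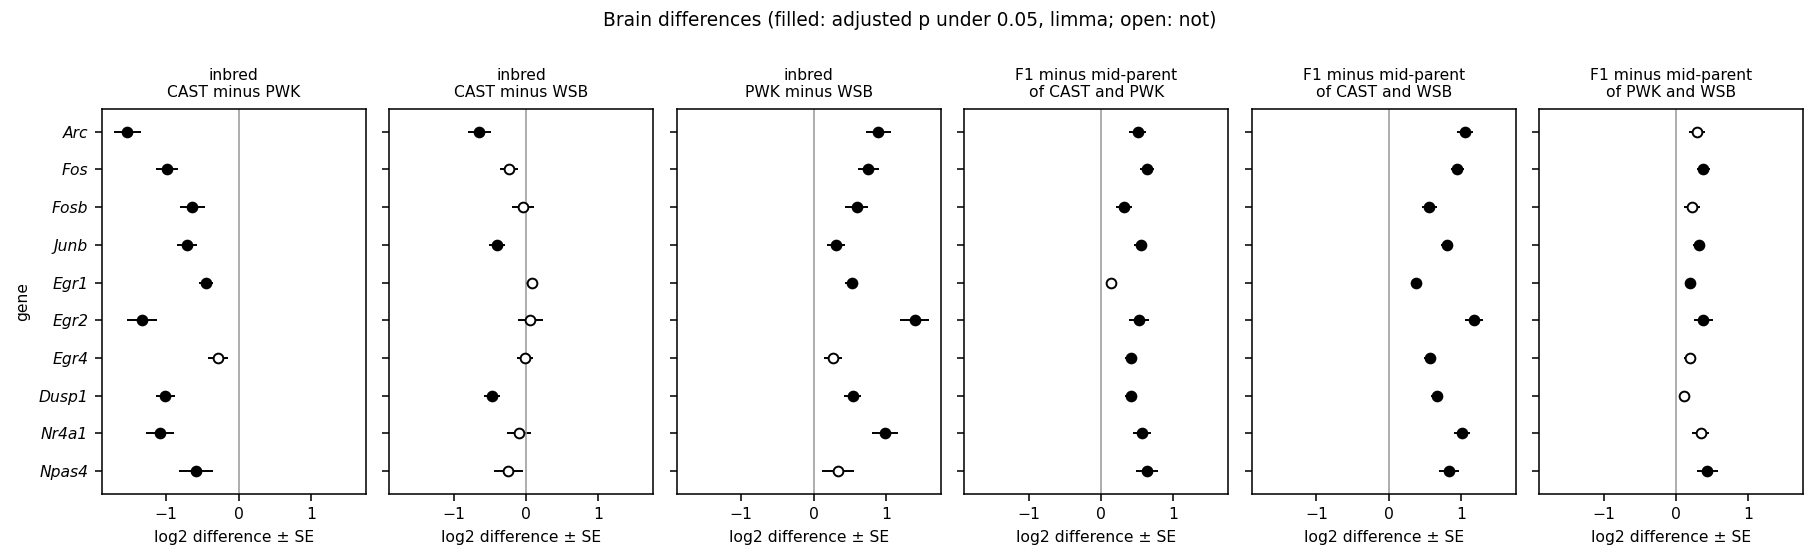
Fitted log2 differences with their SE (horizontal axis) for the 10 genes (vertical axis) in 6 brain contrasts, filled where the adjusted p was under 0.05. The points lie left of 0 for CAST minus PWK and right of 0 for PWK minus WSB and for all 3 differences of F1 animals from the mean of their parents.

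The F1 brains did not lie midway between the parents. In the pairs with WSB, the parental mean joins the low WSB males, all of a single run, with the higher WSB females. The mid-parent contrasts were not fitted within a sex. For CAST and WSB, the F1 animals exceeded the mean of the parents in 10 of 10 members, where 23.0% of all tested genes did. The excess was 1.18 ± 0.12 for Egr2, 1.06 ± 0.11 for Arc, 1.02 ± 0.11 for Nr4a1 and 0.95 ± 0.09 for Fos (SE, adjusted p from 2.64e-13 to 1.35e-10, limma), and 0.37 ± 0.06 for Egr1, the smallest. For CAST and PWK, 9 of 10 members exceeded the mean of the parents (11.2% of all genes), by 0.32 for Fosb to 0.64 for Npas4, and Egr1 did not pass (0.14 ± 0.06, adjusted p = 0.111). For PWK and WSB, 5 of 10 did (5.97% of all genes), namely Fos, Junb, Egr1, Egr2 and Npas4, by 0.19 to 0.43. That last count was 0 to 7 when single arrays were left out, with 0 called without PWK replicate 1, and it fell to 2 with runs as a random block and to 0 over means of runs and sexes, and the count for CAST and PWK fell to 4 over those means, while the count of 10 for CAST and WSB was unchanged there.

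Set against each parent with the sexes averaged, the F1 brains resembled PWK and exceeded CAST and WSB. All 10 members were higher in the F1 of CAST and PWK than in CAST (20.9% of all genes were), by 0.36 for Egr1 to 1.28 for Arc. All 10 were also higher in the F1 of CAST and WSB than in CAST (22.4% of all genes), by 0.34 to 1.39, and than in WSB (28.2%), by 0.41 to 1.21. In the F1 of PWK and WSB, 10 of 10 exceeded WSB (18.6% of all genes), by 0.33 to 1.07. Over run means, the counts against WSB were 9 and 5, and fewer of all genes were called there too. Among females alone, the F1 of CAST and WSB exceeded WSB in 1 of 10 members (37.8% of all genes differed in either direction). The F1 of PWK and WSB was not set against WSB within a sex. Against PWK, 0 of 10 members differed in the F1 of CAST and PWK (26.0% of all genes did, in either direction) and 0 of 10 in the F1 of PWK and WSB (21.0%). At an unadjusted p under 0.05, limma gave 1 member (Egr4) in the former and 0 in the latter. The point estimates against PWK ran from -0.26 (Arc) to 0.34 (Npas4) in the former and from -0.32 (Egr2) to 0.26 (Npas4) in the latter, with SE of 0.08 to 0.20. These contrasts with single parents were added after the levels had been seen.

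The direction of the cross gave no called difference. No member was called between CASTxPWK and PWKxCAST (0.151% of all genes were called), between CASTxWSB and WSBxCAST (0.779%) or between PWKxWSB and WSBxPWK (0.248%). At an unadjusted p under 0.05, limma gave 3, 2 and 1 members, and the lowest adjusted p was 0.211, for Arc in CASTxWSB against WSBxCAST (0.42 ± 0.16). The differences of Npas4 were -0.44 ± 0.20 for CASTxWSB minus WSBxCAST (adjusted p = 0.323) and -0.40 ± 0.19 for PWKxWSB minus WSBxPWK (adjusted p = 0.427). With array weights, 1 member was called in CASTxWSB against WSBxCAST.

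Averaged over the 9 crosses, no member differed between the sexes (0.0708% of all genes did). The 10 differences of females from males ran from 0.02 for Egr1 to 0.16 for Fos, and at an unadjusted p under 0.05 limma gave 2 members, Fos and Dusp1 (lowest adjusted p = 0.447).

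In WSB the sexes differed. There, 9 of 10 members were higher in the 5 females than in the 6 males (1.42% of all genes were), by 1.35 ± 0.25 for Npas4, 1.34 ± 0.22 for Egr2, 1.34 ± 0.21 for Nr4a1 and 1.04 ± 0.16 for Fos (SE, adjusted p from 1.41e-05 to 0.000359, limma). Nr4a1 was 10.57, 10.39, 10.91, 10.34 and 10.58 in the 5 females and ran from 8.75 to 9.68 (median 9.22) in the 6 males. Fos was 7.71, 7.71, 8.18, 7.71 and 8.19 in the females and 6.24 to 7.17 (median 6.93) in the males. The ranges of the sexes did not overlap for 5 of 10 members, Arc, Fos, Egr2, Dusp1 and Nr4a1 (1.59% of all tested genes did not overlap). The sex difference of WSB exceeded that of the other 8 crosses in 7 members (1.12% of all genes), the exceptions being Arc and Fosb (adjusted p = 0.0604 each) and Egr4 (adjusted p = 0.171).

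The 6 WSB males all came from a single run of animal numbers and the 5 females from 2 other runs, so sex and run cannot be told apart in this strain. Over the means of runs and sexes, 0 members were called for the sex difference of WSB or for its excess. The strain contrasts were therefore also fitted within each sex, which was chosen after the split had been seen. Among males, 10 of 10 members were called between PWK and WSB, all higher in PWK (23.6% of all genes were called in either direction), by 0.62 for Egr4 to 2.23 for Egr2. Among females 0 of 10 were called (33.8% of all genes), and limma gave 3 members at an unadjusted p under 0.05. The F1 of CAST and WSB differed from WSB in 10 of 10 members among males, all higher in the F1 (27.7% of all genes), and in 1, Egr4, among females (37.8%). Over run means the counts in males were 9 and 7. Within a sex, no share of all genes over run means is given.

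Between CAST and WSB, 6 of 10 members were called among females, all lower in CAST (27.5% of all genes), namely Arc, Fos, Junb, Dusp1, Nr4a1 and Npas4. Among males, 3 of 10 were called, Egr1, Egr2 and Nr4a1, all higher in CAST, fewer than the 49.9% of all genes. For Nr4a1 the difference of CAST from WSB was -0.78 ± 0.25 (SE) in females and 0.59 ± 0.21 in males, and the difference between these was not tested. Over run means these counts were 2 and 0, and the count in females was 2 without CAST replicate 1. CAST lay below PWK in both sexes, in 7 of 10 members among females (21.8% of all genes) and in 10 of 10 among males (32.0%), and over run means in 5 and 10. The female count was 4 without CAST replicate 1, and the male count was 4 without PWK replicate 3, 1 of only 2 PWK males.

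**Figure D3:**
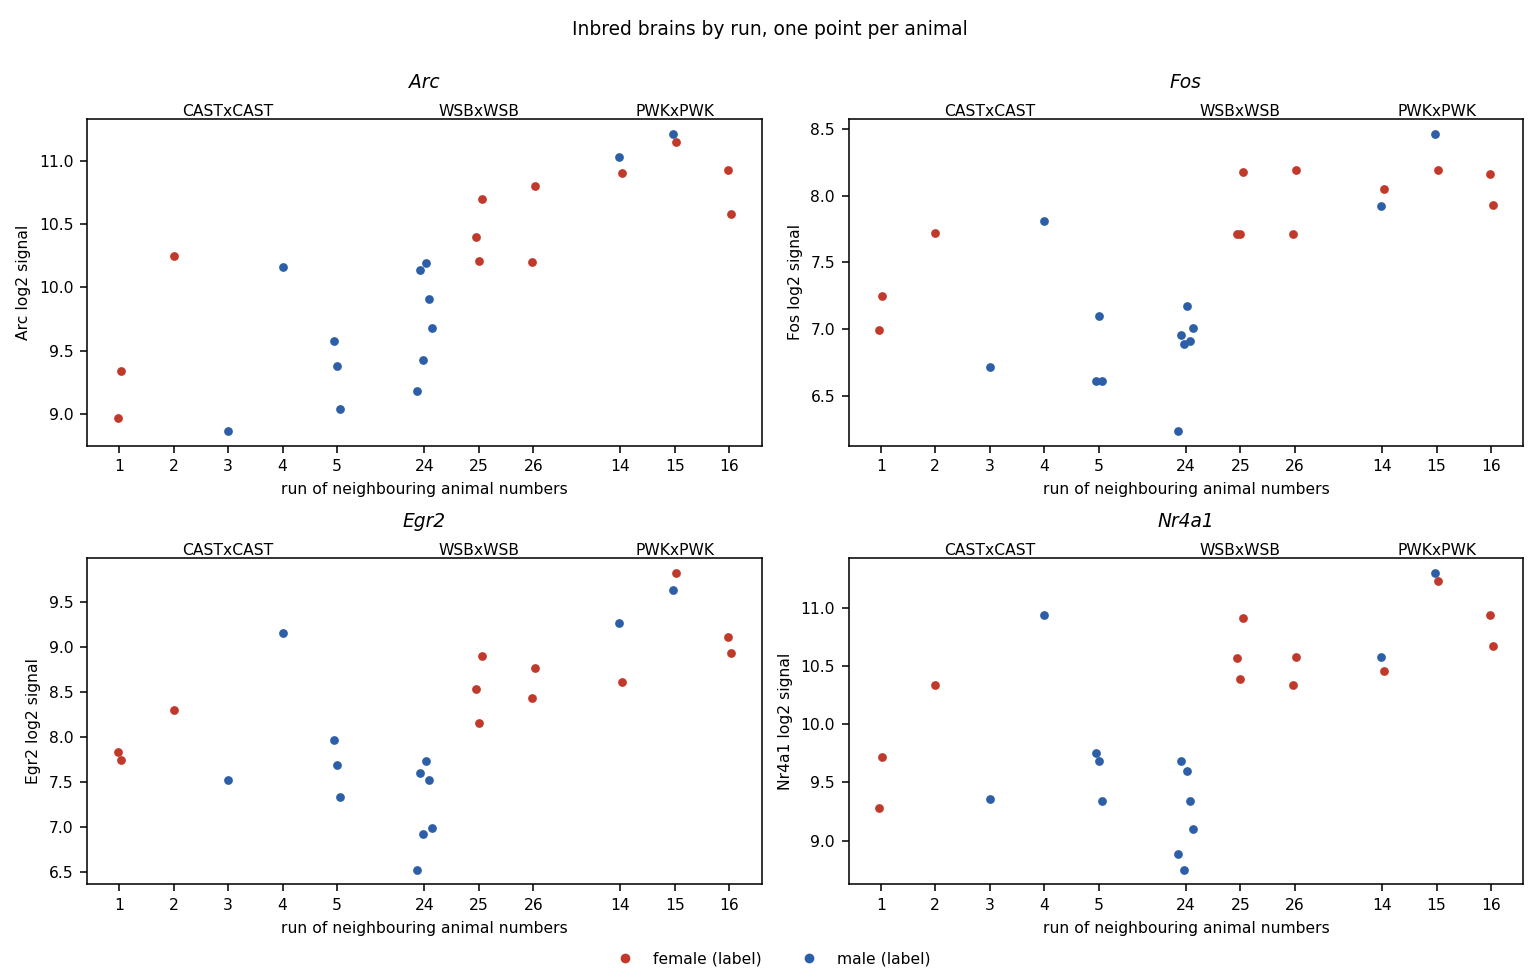
Log2 signal (vertical axis) of Arc, Fos, Egr2 and Nr4a1 in each inbred brain, by run of neighbouring animal numbers (horizontal axis) and coloured by labelled sex. The WSB males, all in a single run, lie below all 5 WSB females, and CAST replicates 3 and 5, each alone in its run, lie above the other 6 CAST animals. CAST replicate 4, also alone in its run, is among those 6.

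In CAST, which came from 5 runs, 2 animals were high. A male in a run of its own (replicate 5) had Nr4a1 at 10.94, Egr2 at 9.15 and Npas4 at 9.51, and a female in a run of its own (replicate 3) had Nr4a1 at 10.34 and Arc at 10.25. The other 6 CAST animals lay between 9.28 and 9.75 for Nr4a1, among them replicate 4, a male also in a run of its own, at 9.36. In WSBxPWK, the 3 females of the first run lay below the 10 animals of the second for Arc, Fosb, Egr1, Egr2 and Nr4a1, with Nr4a1 at 9.30, 10.18 and 10.40 against 10.52 to 11.14, and Arc at 9.33, 10.13 and 10.32 against 10.74 to 11.29. The runs overlapped for Fos, Junb, Egr4 and Dusp1, and for Npas4, at 9.08, 10.16 and 9.87 in the first run and 8.93 to 9.94 in the second.

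Within crosses and sexes the members varied more between animals than most genes did. The residual SD was 0.44 for Npas4, 0.39 for Egr2, 0.36 for Nr4a1, 0.35 for Arc and 0.33 for Fosb, against a median of 0.14 over all tested genes. For 9 members it lay between the 93.9th and the 99.6th percentile of tested genes, and for Egr1 (0.18) at the 77.6th. Npas4 ranked 43rd from the top of 11292 genes. The median SD of the 10 members was largest in CAST (0.44), WSBxPWK (0.38), WSB (0.32) and PWK (0.30), and lay between 0.19 and 0.24 in the other 5 F1 crosses, while the median over all tested genes was 0.12 to 0.15 in every cross.

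The members rose and fell together between animals. Over 85 brains, with the mean of each cross and sex removed, Pearson's r was positive in 45 of 45 pairs, from 0.21 to 0.88 with a median of 0.63, and 44 pairs had an adjusted p under 0.05 (permutation test, 100000 resamples, adjusted over 45 pairs). Spearman's rho ran from 0.11 to 0.82 (44 pairs). Arc and Nr4a1 were the closest pair (r = 0.88), followed by Egr2 and Nr4a1 (0.87), each with an adjusted p of 1.32e-05, the smallest these permutations could give. Npas4 was the least coupled, with r = 0.21 to Arc (adjusted p = 0.0552), 0.25 to Egr4 and 0.28 to Fosb, but 0.64 to Dusp1. Against the mean of the other 9 members, r was 0.91 for Nr4a1, 0.88 for Egr2, 0.55 for Egr4 and 0.48 for Npas4. Within runs, over 71 brains, 44 pairs were called, with a median r of 0.58, and 45 were called without the 2 arrays farthest from the median.

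**Figure D4:**
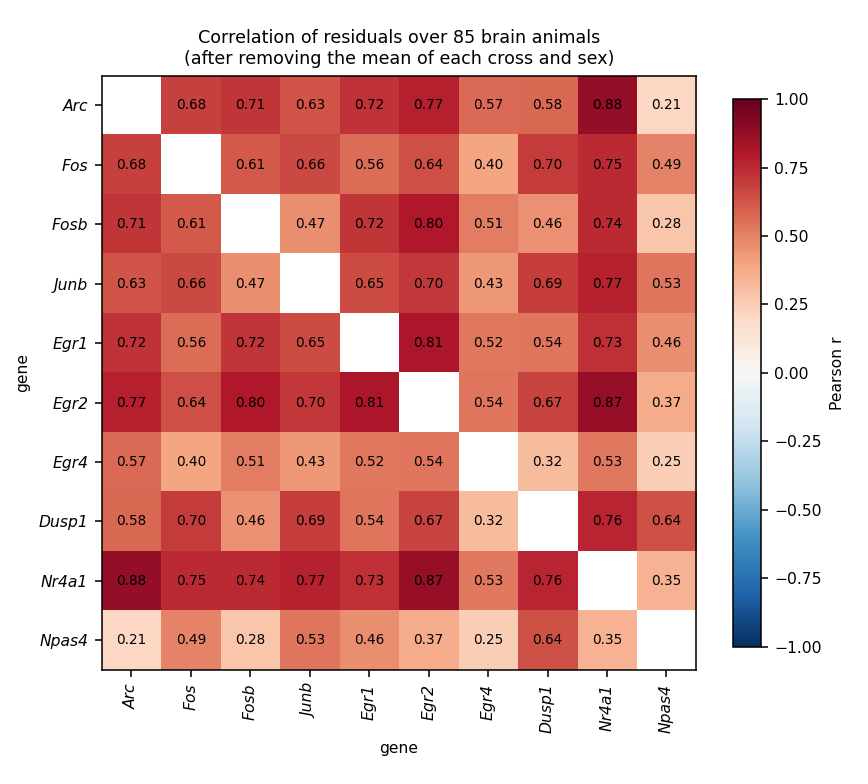
Pearson's r between each pair of the 10 genes over 85 brain animals after the mean of each cross and sex was removed. Both axes list the genes and the colour gives r, from 0.21 for Arc with Npas4 to 0.88 for Arc with Nr4a1.

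The 10 tested genes outside the set whose residuals were most like the mean of the members, over the same 85 brains, were Sik1 (r = 0.75), Ccn1 (0.68), Nr4a3 (0.67), Trib1 (0.65), Dusp5 (0.60), Dusp6 (0.59), Ptgs2 (0.59), Per1 (0.59), Klf10 (0.57) and Klf2 (0.54), with a median r of -0.03 over 11282 genes. All 10 belong to the lists of other rapid genes described next. Sik1 encodes a kinase that restrains CREB coactivators, and Dusp5 and Dusp6 encode phosphatases of ERK kinases.

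Genes of the same pathway were taken from lists of known rapid, delayed and upstream genes. Of 16 tested rapid transcription factors outside the set, 11 had lower and 0 had higher levels in CAST than in PWK, with a median of -0.32, and 11 were higher and 1 lower in PWK than in WSB. Over all tested genes 21.2% were lower and 19.7% higher in the former, and 21.3% higher and 19.1% lower in the latter. Klf10 (-0.77 ± 0.10 SE for CAST minus PWK), Nfil3 (-0.51 ± 0.10) and Jun (-0.34 ± 0.07), the main AP-1 partner of Fos, had the smallest p. Of 16 rapid signalling and RNA regulators, 7 had lower and 0 had higher levels in CAST than in PWK, among them Trib1 (-0.78 ± 0.12), Sik1 (-0.69 ± 0.12) and Plk3 (-0.40 ± 0.08). Between CAST and WSB these lists were split, with 1 higher and 3 lower transcription factors and 3 higher and 4 lower regulators. These counts are near or below the shares of all genes (26.6% higher and 25.7% lower). There Ptgs2, the inducible cyclooxygenase, was higher in CAST by 0.80 ± 0.11, while Ccn1 was lower (-0.97 ± 0.16). The F1 of CAST and WSB exceeded the parents' mean in 10 of 16 transcription factors and 12 of 16 regulators (23.0% of all genes), led by Atf3 (0.46 ± 0.09) and Dusp6 (0.42 ± 0.06).

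Genes induced later by activity, such as those of secreted peptides and synaptic proteins, did not share a direction. Of 15 tested, 3 were higher and 2 lower in CAST than in PWK, 5 higher and 2 lower in CAST than in WSB, and 6 higher and 4 lower in PWK than in WSB. Over all tested genes 19.7% were higher and 21.2% lower in the first comparison. In the second 26.6% were higher and 25.7% lower, and in the third 21.3% and 19.1%. The counts of the first are near the shares of all genes. Nptx2, a secreted pentraxin that clusters AMPA receptors, exceeded its WSB level in PWK by 0.64 ± 0.09 (SE), and Inhba exceeded its WSB level in CAST by 0.75 ± 0.10. Sst, the somatostatin gene, was lower in CAST than in WSB (-0.42 ± 0.08).

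Upstream genes were counted in the same way. Of 20 kinases and transcription factors that drive rapid genes, 6 were higher and 0 lower in CAST than in PWK, with a median of 0.05, and 4 were higher and 0 lower than in WSB. Over all tested genes 19.7% were higher and 21.2% lower in the former and 26.6% higher and 25.7% lower in the latter, so the shares of higher genes in this list are near those of all genes. Creb1 in CAST exceeded PWK by 0.18 ± 0.05 (SE), Mef2a by 0.28 ± 0.06 and Camk4, a nuclear calcium-dependent kinase, by 0.32 ± 0.09. Of 10 calcium channels and glutamate receptors, 2 were higher and 0 lower in CAST than in PWK, and 7 higher and 0 lower than in WSB, such as the NMDA receptor subunit Grin2b (0.62 ± 0.09) and the AMPA receptor subunit Gria2 (0.38 ± 0.07). Of 7 AP-1 partners and EGR corepressors, 1 was higher and 2 lower in CAST than in PWK, and 4 were higher in PWK than in WSB, including the corepressors Nab1 (0.38 ± 0.06) and Nab2 (0.27 ± 0.08), which bind EGR proteins.

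Markers of brain cell types and of stress responses were measured beside these results. Over all tested genes 19.7% were higher and 21.2% lower in CAST than in PWK. Of 7 markers of forebrain excitatory neurons, 0 were called between CAST and PWK, and 1 was higher in CAST and 1 in PWK than in WSB (26.6% and 21.3% of all genes). Of 6 astrocyte markers, 1 was higher and 3 lower in CAST than in PWK, and of 4 oligodendrocyte markers 3 were lower. Of 5 striatal markers 3 were higher in CAST than in PWK, and of 6 endothelial markers 4 were higher and 1 lower. In that contrast 2 of 6 inhibitory neuron markers were higher and 1 lower, 0 of 5 cerebellar markers were called, 1 of 5 microglial markers was higher and 2 lower, 1 of 5 smooth muscle and pericyte markers was higher and 1 lower, the single red cell marker tested was lower, and 0 of 3 hepatocyte markers were called. Choroid plexus markers were lower in CAST than in WSB in 5 of 6 (25.7% of all genes were lower). Across the 85 brains the residuals of the marker means had r = 0.25 (forebrain excitatory), -0.25 (endothelial) and values between -0.14 and 0.06 (the other lists) with the mean of the members. The brain is a bulk sample, in which fewer cells of a type and less RNA per cell cannot be told apart, and the part of cell composition in the strain differences was not tested.

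Glucocorticoid-responsive genes differed between the WSB sexes. Of 10 such genes, 6 were lower in WSB females than in WSB males and 0 higher (0.708% of all genes were lower), with a median of -0.32 against 0.02 over all tested genes. Fkbp5, a cochaperone of the glucocorticoid receptor, differed by -0.95 ± 0.13 (SE, adjusted p = 5.12e-07, limma), Zbtb16 by -0.90 ± 0.13 (adjusted p = 5.8e-06) and Tsc22d3 by -0.60 ± 0.11 (adjusted p = 0.000334). The WSB males, with the low immediate-early genes, thus had the higher signals of these 3 genes. The females and males are also of different runs. Over run means 0 of the immediate-early members were called in this contrast, and the glucocorticoid-responsive genes were not examined there. Fkbp5 was also below the mean of the parents in all 3 pairs of F1 crosses (-0.35, -0.46 and -0.35). Between CAST and PWK, 3 of the 10 were higher in CAST and 0 lower (19.7% and 21.2% of all genes), led by Mt2 (0.35 ± 0.05). Over all 85 brains the residuals of the list had r = 0.06 with the mean of the members. Heat shock genes gave 2 higher and 2 lower of 8 between CAST and PWK, and 1 of 8, Hspb1, was lower in WSB females (-0.65 ± 0.12). The part of these responses in the levels of the members was not tested.

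Across tissues, 9 of the 10 genes had their highest signal in brain, and Dusp1 its lowest. The tissue comparison used limma on 13774 genes that passed the filter in at least 1 tissue, and nearly all of them differed between any pair of tissues (95.5% between brain and kidney, 96.4% between brain and liver, 95.0% between brain and lung), so that the sizes carry more than the calls. Members that passed the filter through their brain signal alone had to differ here, so counts are given for those that passed in both tissues. These were 6 for kidney, 5 for liver and 7 for lung, and each was called, Dusp1 lower and the others higher in brain. Npas4 and Egr4 passed in brain only, and for them and the other members below the filter the levels are a description.

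Npas4 and Arc were the most brain-enriched. Npas4 averaged 9.13 ± 0.62 (SD, n = 85) in brain, 4.93 ± 0.15 (n = 102) in kidney, 5.08 ± 0.20 (n = 101) in liver and 4.88 ± 0.15 (n = 98) in lung, and did not pass the filter on low signals outside brain. Arc averaged 10.58 ± 0.59 in brain and 6.90 ± 0.34 in kidney, 5.78 ± 0.29 in liver and 6.07 ± 0.34 in lung, and passed the filter outside brain in kidney only. Egr4 (8.02 ± 0.34 in brain) averaged 5.25 to 5.86 elsewhere and passed in no other tissue.

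The AP-1 genes, Egr2 and Nr4a1 had lung as their next tissue. Fos averaged 7.98 ± 0.53 (SD, n = 85) in brain and 7.29 ± 0.56 (n = 98) in lung, but 5.21 ± 0.48 in kidney and 5.39 ± 0.54 in liver, where it did not pass the filter. Nr4a1 averaged 10.60 ± 0.60 in brain, 9.77 ± 0.93 in lung, 8.15 ± 0.87 in kidney and 7.07 ± 0.98 in liver, and its lung range of 8.21 to 11.88 contained the whole brain range of 8.75 to 11.31. Brain exceeded lung by 0.69 ± 0.07 (SE) for Fos, 0.52 ± 0.05 for Junb, 0.85 ± 0.11 for Nr4a1, 1.36 ± 0.08 for Fosb and 1.41 ± 0.05 for Egr2. Egr1 differed, with liver next at 8.38 ± 0.83 (SD, n = 101), above lung by 0.23 ± 0.07 (SE). Dusp1, expressed in many tissues, averaged 12.56 ± 0.26 in lung, 11.26 ± 0.32 in kidney, 10.99 ± 0.53 in liver and 10.57 ± 0.40 in brain.

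**Figure D5:**
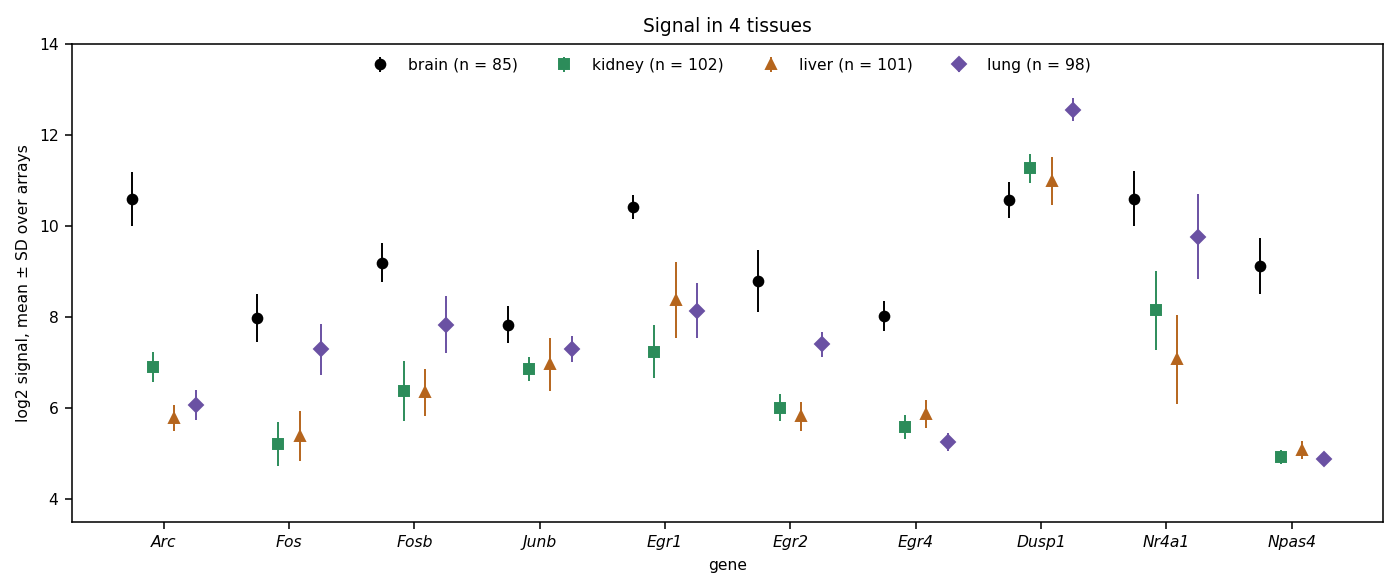
Mean log2 signal with SD (vertical axis) of the 10 genes (horizontal axis) in brain, kidney, liver and lung, over all arrays of each tissue. Brain is highest for every gene but Dusp1, for which lung is highest at 12.56.

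Among the other tissues, 5 members passed the filter in each of kidney, liver and lung, namely Fosb, Junb, Egr1, Dusp1 and Nr4a1. Of these, 3 were called between kidney and liver (93.2% of all genes were), 5 between kidney and lung (93.9%) and 5 between liver and lung (95.9%). The neighbours not called were Fosb (0.05 ± 0.07 SE) and Junb (-0.08 ± 0.05) for kidney minus liver.

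The strain differences of brain were tested against the mean of the same differences in kidney, liver and lung. A member at low signal outside brain can show little strain difference there, so the test is read only for the 5 members that passed the filter in all 4 tissues. Of these, 1 was called for CAST minus PWK, more negative in brain (16.3% of all genes), namely Junb (-0.82 ± 0.20 SE, adjusted p = 0.000485, limma). All 5 were called for PWK minus WSB, more positive in brain (13.3% of all genes), from 0.55 ± 0.16 for Dusp1 to 1.65 ± 0.40 for Nr4a1. For CAST minus WSB it was Nr4a1 alone (1.25 ± 0.38, adjusted p = 0.00417), more positive in brain (14.2% of all genes). The WSB males of the single run enter the WSB values here too.

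The other tissues of the same WSB animals were then examined by sex. Nr4a1 ran from 9.13 to 10.16 in the kidneys of the 5 females and from 7.02 to 8.53 in those of the 6 males, from 8.62 to 10.87 against 6.43 to 7.47 in liver, and from 10.44 to 11.57 (n = 4) against 8.41 to 9.09 in lung. Among these animals the sexes did not overlap for 5 of 10 members in kidney (Fos, Fosb, Egr1, Egr2 and Nr4a1, of which Fos and Egr2 were below the filter there), where 7.70% of all genes did not overlap. The count was 1 of 10 in liver (6.61% of all genes), for Nr4a1, and 3 of 10 in lung (17.9%), for Fosb, Egr2 and Nr4a1. The median was higher in females for 9 of 10 members in kidney and in lung and for 4 of 10 in liver, against 50.6%, 46.8% and 54.2% of all genes. In liver Egr1 had a median of 8.83 in females and 9.72 in males. A WSB female with no brain array had Nr4a1 at 6.93 in kidney, 6.79 in liver and 8.27 in lung, within or below the range of the 6 males, and a male with none had 7.34 in liver and 9.61 in lung. With these animals included, 0 of 10 members were free of overlap between the sexes in each of the 3 tissues. These values are a description of animals noticed in brain, with no test.

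Between tissues of the same animals, after cross and sex were removed, relations were counted with and without brain. Of 60 relations between tissue pairs, 26 had an adjusted p under 0.05 (permutation test, adjusted over 60), and 8 of these involved brain. Dusp1 correlated between brain and kidney (r = 0.54, n = 78, adjusted p = 4.62e-05; 0.55 within runs) and between brain and lung (0.39, n = 74, adjusted p = 0.00171; 0.45 within runs). Nr4a1 correlated between brain and kidney (0.42, adjusted p = 0.00045, and 0.39 within runs) and Fosb between brain and liver (0.33, n = 77, adjusted p = 0.00847, and 0.44 within runs). Without the 2 arrays farthest from the median, Dusp1 was not called between brain and lung (0.23, adjusted p = 0.107). The relations of Dusp1 and Nr4a1 between brain and kidney and of Fosb were still called there. Egr1 was inversely related between brain and liver (-0.35) and brain and lung (-0.38), and Junb between brain and kidney (-0.30) and brain and liver (-0.34), but within runs these were -0.14, -0.14, -0.07 and -0.26 and none was called. Within runs 9 relations with brain were called, 4 of them also called before. The other 5 were Arc between brain and kidney (0.35) and brain and lung (0.32), Dusp1 (0.30) and Nr4a1 (0.31) between brain and liver, and Npas4 between brain and kidney (-0.29), where Arc in lung and Npas4 in kidney were below the filter. Among kidney, liver and lung, 6 of 10 members were called in each pair, with median r of 0.41 to 0.47. Fos was among them, although below the filter in kidney and liver. Such relations were not computed for genes outside the set, so the counts in this paragraph have no share of all genes beside them.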

How the data were processed

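The authors deposited log2 signals per transcript cluster of Affymetrix Mouse Gene 1.1 ST arrays. RMA, run in Affymetrix's Expression Console, is named in the submitters' processing notes. Versions, the genome build and whether all tissues entered a single normalisation are not given in the sources used here. Probes that match the strains unequally could change a signal without a change in RNA, which was not tested.

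Of 35556 clusters, those with 1 gene symbol gave 18820 genes, with the highest-mean cluster kept for each symbol. Brain contrasts were fitted with limma 3.58.1 (R 4.3.3) to 18 means of cross and sex over 85 arrays, with a prior variance trend, for genes at or above the 40th percentile of brain means (6.37). Tissue contrasts used 36 means of cross and tissue over all arrays without an animal block. Benjamini-Hochberg adjustment ran over all tested genes of a contrast. The limma step was tested on simulated data. The number of arrays limits the precision. Correlations used residuals from means of cross and sex and 100000 permutations, two-sided, with Python 3.11.15 and scipy 1.17.1.

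The members and gene lists were chosen with earlier results of these data known. Of each list, up to 3 called genes with the smallest p were named per contrast, a rule set for the inbred contrasts and extended afterwards to the F1 and sex contrasts. Alternatives were other filters, no trend, an additive model, runs or animals as random blocks, array weights, a second normalisation, a cerebellar covariate and single arrays left out. Run means, contrasts with single parents, contrasts within sexes and the WSB sex contrasts were added after seeing the data. Promoters are RefSeq sequences of GRCm38.p6. Arc was not matched there, and entries on chromosome 18, where Egr1 lies, were not used for the members. An array labelled female with a low Xist signal was kept under its label.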

Additional observations from a re-analysis of the deposited data

Results flagged for a closer look

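In 60 groups of 4 to 10 brain arrays, 8 had a highest or lowest array set apart from the rest, where chance sets apart about 5% of independent groups. These groups are correlated members in the same animals, so the count cannot be judged against that share. PWKxCAST replicate 7 was set apart as the lowest of its cross in 5 members. It was at 9.53 for Arc (next 10.27), 7.46 for Junb (7.88), 8.17 for Egr2 (8.84), 10.24 for Dusp1 (10.62) and 9.94 for Nr4a1 (10.50). Its Npas4 signal, 9.95, was in contrast among the highest of its cross, below only replicate 8 at 10.04. CAST replicate 5 was the highest CAST brain for Junb, at 7.97 (next 7.16). Fosb was 9.04 in CASTxPWK replicate 9, the lowest of its cross (next 9.45), and 10.06 in PWKxWSB replicate 3, the highest (next 9.52).

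The strain difference in brain differed from the mean of the same difference in the other tissues, by limma's test of the difference itself. Fosb, Junb, Egr1, Dusp1 and Nr4a1 passed the filter on low signals in all 4 tissues. Npas4 passed in brain only and Arc, Fos and Egr2 in 1 other tissue each, so that low signal limits their strain difference outside brain and their values are given as a description. For CAST minus PWK it differed by -1.56 for Arc, -1.32 for Egr2, -0.82 for Fos, -0.82 for Junb and -0.50 for Npas4. For CAST minus WSB it differed by 1.25 for Nr4a1. For PWK minus WSB it differed by 1.65 for Nr4a1, 1.42 for Egr2, 1.26 for Arc, 1.02 for Egr1, 1.01 for Fos, 0.99 for Fosb, 0.77 for Junb and 0.55 for Dusp1.

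The difference of females from males in WSB brains exceeded that in the other 8 crosses by 1.39 for Egr2, 1.37 for Npas4, 1.33 for Nr4a1, 0.98 for Fos, 0.75 for Dusp1, 0.74 for Junb and 0.45 for Egr1. Sex and run of animal numbers cannot be told apart in WSB.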

How the results depend on the processing

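Over the alternatives other than single arrays left out, the members kept their direction and side of the threshold in 995 cases in brain, fell out of the calls in 45 and entered them in 4, and in 270 of 270 in the tissue contrasts. With the animal as a random block (replicate block), the contrasts between tissues called 10, 10, 10, 8, 9 and 10 members as without it (members below the filter in a tissue included), and that block changed no member's call. Of pair correlations 87 were unchanged in call, 2 entered and 1 left. With means of each run and sex, members called were 0 for CAST against WSB, 4 and 0 for the F1 against the mean of CAST and PWK and of PWK and WSB, and 5 for the F1 of PWK and WSB against WSB. Genes called with those means were 3745 and 3025 for CAST and PWK against WSB, 341, 1984 and 56 for the 3 mid-parent contrasts, 2528, 2129 and 735 for the F1 of CAST and PWK against CAST, of CAST and WSB against WSB and of PWK and WSB against WSB, and 4, 4 and 1 for the reciprocal contrasts. These means leave fewer units. With runs as a random block, 1008 and 452 genes and, for PWK and WSB, 2 members were called in the mid-parent contrasts, and 6, 19 and 5 genes in the reciprocal ones. For the PWK and WSB mid-parent contrast, 3 members were called without a filter and 2 with the cerebellar covariate. The additive model called 1 member (Egr4) for the F1 of CAST and PWK against PWK, and 9 and 10 genes between the reciprocal CAST and PWK and PWK and WSB crosses. Array weights called 72, 481 and 388 genes between reciprocal crosses, with 1 member for CAST and WSB, and 17 genes between the sexes. The filter at the 60th percentile, which tests fewer genes, called 2985, 3924 and 2897 genes in the inbred contrasts, 1532 and 2606 for the F1 of PWK and WSB against PWK and WSB, and 53 and 12 between the reciprocal crosses with WSB. Leaving out single arrays gave 1393 to 2689 genes for the F1 against the mean of CAST and PWK (lowest without CAST replicate 1) and 0 to 7 members and 592 to 1323 genes for PWK and WSB. It gave 0 to 1 members and 1664 to 3230 genes for the F1 of CAST and PWK against PWK and 1254 to 2447 genes for that of PWK and WSB, and the lowest gene counts of these 3 contrasts came without PWK replicate 1. Between reciprocal crosses it gave 10 to 19, 29 to 153 and 13 to 65 genes. Within sexes, means of each run and sex gave 2 (females) and 0 (males) members for CAST against WSB, 0 for the F1 of CAST and WSB against WSB in females, and 0 for the sex difference of WSB and for its excess over the other crosses. That F1 count in females, 1, was also 0 with the 60th percentile, runs as a block, array weights and brain arrays normalised alone, and 0 to 2 with single arrays left out. For PWK against WSB in females, array weights gave 1 and single arrays left out 0 to 1. For CAST against PWK, single arrays left out gave 4 to 7 (females) and 4 to 10 (males), and for CAST against WSB in females 2 to 6. Except where fewer units or genes are named, the cause was not tested.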

Other observations

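Outside brain, members lay on both sides of the mean of the parents in the F1 animals. In liver, Egr1 was below that mean in all 3 pairs of strains, by -0.98 ± 0.16 (SE) for CAST and PWK, -0.94 ± 0.15 for CAST and WSB and -0.49 ± 0.15 for PWK and WSB, and Junb by -0.46 ± 0.11, -0.30 ± 0.10 and -0.29 ± 0.10 (adjusted p from 2.11e-08 to 0.0247, limma). In lung, Fosb and Nr4a1 were above it in all 3, by 0.58 to 0.83 and by 0.77 to 1.08. Dusp1 was above it in kidney, liver and lung for the pairs of CAST with PWK (0.28, 0.27 and 0.27) and with WSB (0.44, 0.59 and 0.33). Of 13774 tested genes, 1803, 1895 and 1483 were called below the mean of the parents in liver, and 1038, 1485 and 2319 above it in lung. The tissue fit did not separate the sexes. Among WSB animals with a brain array, Fosb and Nr4a1 were higher in the lungs of females than of males, which all came from a single run.

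Dusp1 was also lower in CAST than in PWK in each of the other tissues, by -0.67 ± 0.12 in kidney, -0.96 ± 0.13 in liver and -0.57 ± 0.13 in lung (SE, adjusted p from 2.33e-11 to 3.14e-05, limma). Its difference in brain was not called different from their mean (adjusted p = 0.187).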
